A study of Homo sapiens with 12 samples.

Results

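The 6 islet hormone genes INS, GCG, SST, PPY, GHRL and IAPP were followed in islet-like cells made from expandable pancreatic progenitors of MEL1, a human embryonic stem cell line. All 6 were found by gene name, among 60669 gene rows in the tables of the NKX2-2 experiment and, joined by Ensembl identifier, among 60624 in those of the CLEC16A experiment. The 12 RNA-seq libraries form 4 groups of 3, NKX2-2 knockout (KO) with its own wild type (WT) and CLEC16A KO with its own WT. NKX2-2 is a homeodomain transcription factor of islet cells, and CLEC16A is a regulator of mitophagy. All groups were at day 8 in the medium called R6, which holds T3, LDN-193189, Compound E, 616452, forskolin, zinc sulfate, heparin and vitamin C, so KO and WT cells shared these agents. The labels name no edited allele or clone and do not say whether replicates were separate cultures, so an effect of the knockout cannot be told apart from a difference between the cell lines themselves. For the same reason the p-values cover no more than library-to-library spread, and this spread may be technical.

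Islet hormones are made as longer precursors, cut by proprotein convertases in the secretory granule and released by exocytosis. In the adult islet each endocrine cell type is known by its main hormone: beta cells by insulin, alpha cells by glucagon, delta cells by somatostatin, PP cells by pancreatic polypeptide and epsilon cells by ghrelin. In the mouse embryo, loss of Nkx2-2 leaves an islet with ghrelin cells in place of beta cells. Amylin, the product of IAPP, is released by beta cells together with insulin. Islet-like cells made from stem cells can express more than one hormone per cell, and in bulk RNA fewer cells of a type and less RNA per cell cannot be told apart.

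The promoters of INS, GCG and SST are shown because these hormones have the highest TPM (transcript abundance scaled for length and library). The ratios between these hormones also differed, without overlap, between KO and WT libraries of both experiments. Each line gives the 250 bases before the annotated start, 5′ to 3′ on the gene's strand, from RefSeq (GRCh38.p14). The gene spans given below are from GENCODE 29 and take in part or all of the window of every hormone gene but GHRL. Capitals mark 4 motifs searched on both strands: AAGTG (the core bound by NKX2 factors), TAAT (the homeodomain core), TGACGTCA (the cAMP response element) and TGCTGA (a MAF core).

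INS (chr11:2161210-2161459, minus strand): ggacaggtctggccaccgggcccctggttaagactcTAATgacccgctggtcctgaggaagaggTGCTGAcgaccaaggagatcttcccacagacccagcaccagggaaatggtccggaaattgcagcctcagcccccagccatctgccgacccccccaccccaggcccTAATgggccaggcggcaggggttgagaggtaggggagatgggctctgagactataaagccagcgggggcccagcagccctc
GCG (chr2:162152248-162152497, minus strand): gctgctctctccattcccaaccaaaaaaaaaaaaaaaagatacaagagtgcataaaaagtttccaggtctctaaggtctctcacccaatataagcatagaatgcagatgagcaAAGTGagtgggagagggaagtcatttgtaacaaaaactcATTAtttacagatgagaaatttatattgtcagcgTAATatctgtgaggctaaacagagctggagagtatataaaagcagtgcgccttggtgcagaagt
SST (chr3:187670395-187670644, minus strand): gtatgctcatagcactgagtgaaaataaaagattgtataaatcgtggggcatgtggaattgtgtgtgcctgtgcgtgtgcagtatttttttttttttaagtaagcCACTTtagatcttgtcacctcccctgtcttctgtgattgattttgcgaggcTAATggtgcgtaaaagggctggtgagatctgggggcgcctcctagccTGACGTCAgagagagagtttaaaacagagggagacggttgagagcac

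The NKX2 core had 1 match each before GCG, SST, PPY and GHRL and 0 before INS and IAPP, and 37.6% of 35114 promoter windows of that length hold it. The homeodomain core had 2 matches before INS, 2 before GCG, 1 before SST, 8 before IAPP (some overlapping each other) and 0 before PPY and GHRL, and 47.45% of windows hold it. Of the 6 genes, SST alone had the full cAMP response element, beginning 47 bases before the start, which 1.65% of windows hold. INS alone had the MAF core, beginning 186 bases before the start, which 14.0% of windows hold. The E box CANNTG, bound by factors such as NEUROD1, had 1 match before INS, 3 before GCG, 1 before SST, 2 before PPY, 1 before GHRL (overlapping the NKX2 core) and 0 before IAPP, and 61.8% of windows hold it. These matches describe the letters of the windows and show no binding.

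NKX2-2 libraries held between 16158286 and 20654720 counts and CLEC16A libraries between 31364272 and 33763795, and the hormone genes took 0.0408% to 0.287% of them. In NKX2-2 libraries the summed TPM reached only 41.5% to 47.3% of the scale's total, and in CLEC16A libraries 99.7% to 99.8%, so TPM were compared only within an experiment. In the NKX2-2 experiment WT library 3 stood apart, with a chi-square per degree of freedom of 17.0 from each other WT library, beside 3.84 between those. KO libraries 1 and 3 were the farthest apart, at 25.3, beside 10.5 and 12.5 from KO library 2. NKX2-2 transcripts lay at 68.0 to 91.9 CPM (counts scaled to library size, with no correction for length) in libraries labelled NKX2-2 KO and at 93.4 to 96.6 CPM in WT (log2 fold change -0.32, SE 0.12, adjusted p = 0.06096). CLEC16A transcripts lay at 35.4 to 38.0 CPM in libraries labelled CLEC16A KO and at 30.1 to 36.2 CPM in WT (log2 fold change 0.18, SE 0.09, adjusted p = 0.0949). Neither passed the test, so the transcript level of the targeted gene does not check the labels.

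The first comparison asked how the hormone genes differ in cells labelled NKX2-2 KO. Of the 5 hormone genes that could be tested, SST rose, GCG, PPY and INS fell, and GHRL did not pass the test. By comparison, 33.4% of the 17436 genes tested were called in this comparison, 16.6% higher and 16.8% lower. The median log2 fold change was -1.39 over the 5 hormone genes and 0.03 over all genes tested. Tests used counts (edgeR's quasi-likelihood test, adjusted p under 0.05), and levels are TPM unless stated.

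GCG, which encodes preproglucagon (ENSG00000115263, chromosome 2, 162142873 to 162152404, minus strand, GRCh38), had the largest fall among the hormones. It stood at 32.1, 45.3 and 45.2 TPM in KO libraries, against 851, 824 and 975 TPM in WT libraries. All KO libraries lay below all WT libraries, and in CPM 45.5% of genes tested had groups that do not overlap. On counts GCG fell 21.5-fold (log2 fold change -4.43, SE 0.17, adjusted p = 4.022e-09).

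SST encodes the precursor of somatostatin, which restrains insulin and glucagon release (ENSG00000157005, chromosome 3, 187668906 to 187670399, minus strand). It stood at 150.4, 131 and 131 TPM in KO libraries, against 24.9, 26.2 and 37.2 TPM in WT libraries. The groups did not overlap, and the KO libraries differed little among themselves. SST rose 4.64-fold (log2 fold change 2.21, SE 0.15, adjusted p = 2.774e-07), and without WT library 3 the change was 2.43 on the log2 scale (adjusted p = 4.759e-08).

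INS, the insulin gene (ENSG00000254647, chromosome 11, 2159779 to 2161341, minus strand), stood at 1269.9, 1239.7 and 1588 TPM in KO libraries, against 2993, 3065 and 4437 TPM in WT libraries. The groups did not overlap, and WT library 3 was well above the other WT libraries. INS fell 2.61-fold (log2 fold change -1.39, SE 0.16, adjusted p = 2.059e-05), and without WT library 3 the change was -1.17 on the log2 scale (adjusted p = 1.246e-05).

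PPY, the gene of pancreatic polypeptide (ENSG00000108849, chromosome 17, 43940804 to 43942468, minus strand), was near the limit of detection in KO libraries, with 4, 18 and 15 counts, against 73, 74 and 104 counts in WT libraries. In TPM these were 0.369, 1.31 and 1.26 in KO libraries, against 5.52, 5.88 and 8.90 in WT libraries. KO library 1 was the lowest and the groups did not overlap. PPY fell 6.35-fold (log2 fold change -2.67, SE 0.37, adjusted p = 0.0001089), or -2.31 on the log2 scale without KO replicate 1 (adjusted p = 0.0006389).

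GHRL encodes the ghrelin precursor (ENSG00000157017, chromosome 3, 10285675 to 10292947, minus strand) and stood at 14.6, 12.5 and 14.9 TPM in KO libraries, against 14.5, 15.9 and 18.2 TPM in WT libraries. The groups overlapped, and GHRL did not pass (log2 fold change -0.29, SE 0.15, adjusted p = 0.1488). IAPP (ENSG00000121351, chromosome 12, 21354959 to 21379978, plus strand) had 5, 6 and 4 counts in KO libraries, against 16, 9 and 13 counts in WT libraries. The groups did not overlap, but the counts are too low for the count filter. With no filter IAPP did not pass (log2 fold change -1.25, SE 0.61, adjusted p = 0.1558), so a difference was not detectable at this depth.

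**Figure D1:**
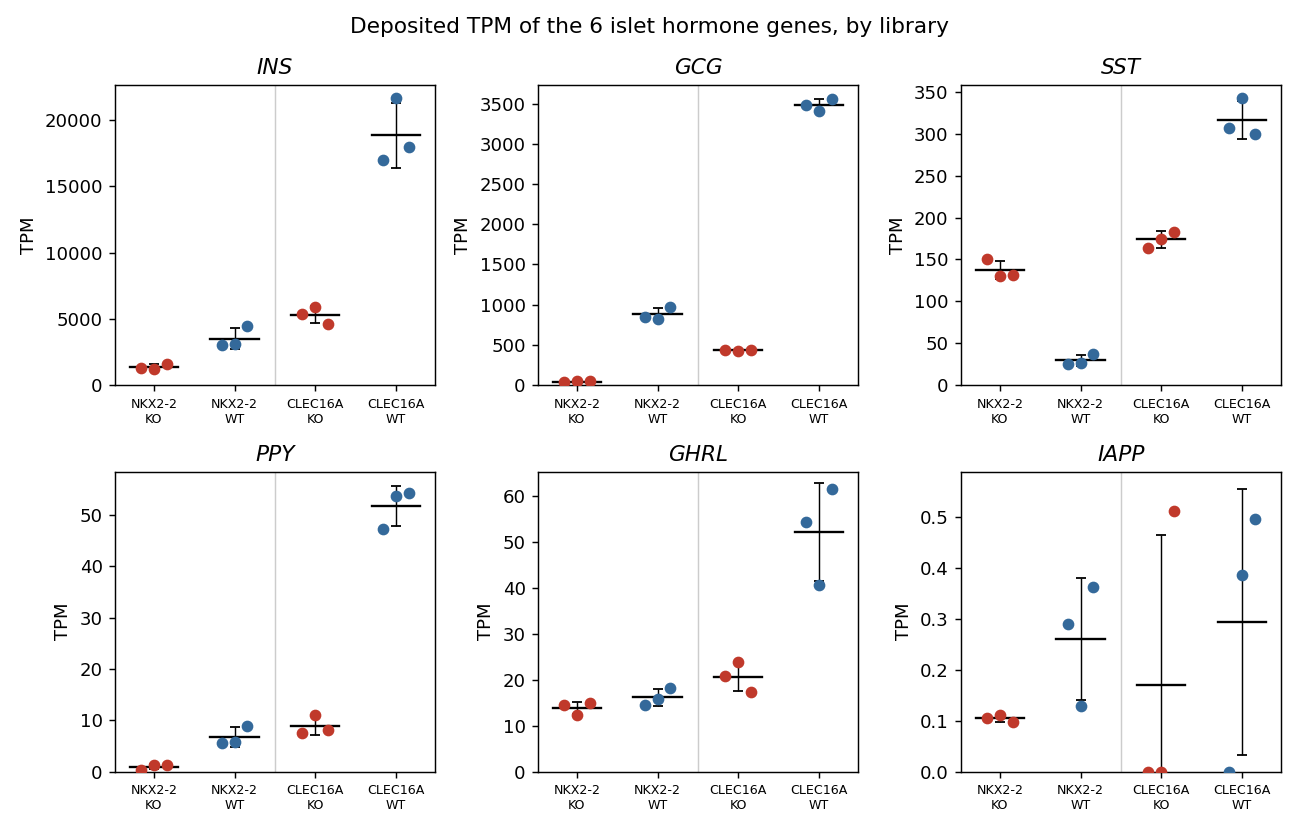
Deposited TPM of each hormone gene (y axis, linear, a different scale in each panel) by group (x axis), with 1 point per library, the group mean as a line and the SD (n = 3) as a bar. SST is the only panel of the 6 in which the NKX2-2 KO points (131 to 150.4 TPM) lie above their WT points (24.9 to 37.2 TPM); levels should be read across a panel only within an experiment.

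In cells labelled CLEC16A KO, the subject of the second comparison, GCG, PPY, INS, GHRL and SST all fell, and IAPP, which was just high enough to be tested, did not pass. In this comparison 45.0% of the 19958 genes tested were called, 23.7% higher and 21.3% lower. The median log2 fold change was -1.54 over the 6 hormone genes and -0.01 over all genes tested.

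GCG stood at 438, 429 and 435 TPM in KO libraries, against 3487, 3412 and 3554 TPM in WT libraries. Both groups were tight and did not overlap, as in 53.8% of genes tested (in CPM). GCG fell 7.27-fold (log2 fold change -2.86, SE 0.06, adjusted p = 4.46e-19). PPY stood at 7.58, 11.0 and 8.21 TPM in KO libraries, against 47.4, 53.7 and 54.4 TPM in WT libraries. It fell 5.18-fold, without overlap of the groups (log2 fold change -2.37, SE 0.18, adjusted p = 2.85e-10).

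INS stood at 5359, 5891 and 4623 TPM in KO libraries, against 16967, 21627 and 17984 TPM in WT libraries. It remained the hormone with the highest TPM in every library while falling 3.41-fold (log2 fold change -1.77, SE 0.08, adjusted p = 1.913e-13). GHRL stood at 20.8, 23.8 and 17.4 TPM in KO libraries, against 54.3, 40.6 and 61.5 TPM in WT libraries, a 2.49-fold fall without overlap (log2 fold change -1.32, SE 0.13, adjusted p = 3.223e-08).

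SST had the smallest called change, at 164, 174 and 183 TPM in KO libraries, against 306, 342 and 300.2 TPM in WT libraries. It fell 1.65-fold, and the groups did not overlap (log2 fold change -0.73, SE 0.07, adjusted p = 2.904e-08). IAPP had 12, 13 and 18 counts in KO libraries, against 2, 6 and 16 counts in WT libraries. The groups overlapped and IAPP did not pass (log2 fold change 0.92, SE 0.64, adjusted p = 0.2622). IAPP was listed at 0 TPM in KO libraries 1 and 2 and WT library 1 although each had counts, and with limma on log2(TPM + 1) its change turned to -0.15 (adjusted p = 0.6283), so no direction was set for it.

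**Figure D2:**
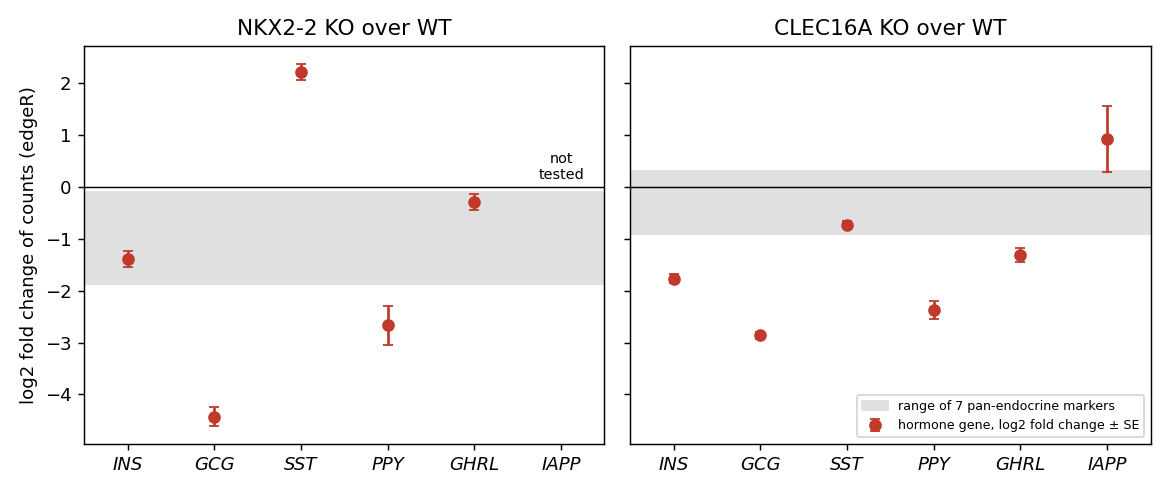
Log2 fold change of counts, KO over WT, with its SE (y axis) for each hormone gene (x axis) in the NKX2-2 experiment (left) and the CLEC16A experiment (right); the grey band spans the log2 fold changes of 7 pan-endocrine marker genes. SST at 2.21 lies above the band on the left and at -0.73 within it on the right, and GCG and PPY lie below it in both.

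Whether the effects of NKX2-2 KO and CLEC16A KO differ was tested as an interaction over the 12 libraries. It passed for 3 of the 6 hormone genes, beside 38.2% of 20494 genes, 17.8% with a higher effect in the NKX2-2 experiment and 20.4% with a lower one. The effect on SST was higher in the NKX2-2 experiment by 2.95 on the log2 scale (SE 0.18, adjusted p = 1.384e-11), with the 2 effects of opposite sign. The effect on GHRL was higher there by 1.03 (SE 0.20, adjusted p = 0.0002697), and that on GCG was -1.56 relative to the CLEC16A experiment (SE 0.17, adjusted p = 1.561e-07), a deeper fall. For PPY the difference was -0.29 (SE 0.42, adjusted p = 0.6358) and for IAPP -2.12 (SE 0.86, adjusted p = 0.05622). For INS it was 0.39 (SE 0.20, adjusted p = 0.1424), but it passed in 4 of 19 alternatives, with adjusted p from 0.001047 without both NKX2-2 libraries numbered 3 to 0.3087. Without NKX2-2 WT replicate 3 alone the INS difference was 0.61 (adjusted p = 0.001974). IAPP passed in 2 of 19, with adjusted p from 0.008035 without CLEC16A WT replicate 3, where the difference was -3.11, to 0.1657.

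The order of the hormones by TPM differed between the groups. In NKX2-2 KO libraries it was INS, SST, GCG, GHRL, PPY and IAPP, against INS, GCG, SST, GHRL, PPY and IAPP in their WT, so SST and GCG changed places. No neighbours in either order overlapped between libraries, the closest being SST and GHRL in WT, 1.82-fold apart. The order in CLEC16A KO libraries was INS, GCG, SST, GHRL, PPY and IAPP, without overlap of neighbours, and their WT had the same order, but there GHRL (52.1 ± 10.6 TPM, SD, n = 3) and PPY (51.8 ± 3.86 TPM) overlapped and cannot be ranked. The place of INS depends on the measure. On counts per kilobase of median transcript length (GENCODE 29), a scale chosen after seeing the data, INS was still first in both KO groups, but GCG was first and INS second in both WT groups. PPY and IAPP overlapped on that scale in NKX2-2 KO libraries, and the order was otherwise the same.

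Ratios between hormones within a library need no scaling between libraries. In TPM, INS exceeded GCG 39.6-, 27.4- and 35.2-fold in NKX2-2 KO libraries, against 3.52-, 3.72- and 4.55-fold in WT libraries. In CLEC16A KO libraries the ratio of INS to GCG was 12.2, 13.7 and 10.6, against 4.87, 6.34 and 5.06 in WT libraries. On counts per kilobase the ratio of INS to GCG was 8.03, 5.48 and 6.32 in NKX2-2 KO libraries, against 0.691, 0.748 and 0.890 in WT libraries. It was 1.05, 1.20 and 1.06 in CLEC16A KO libraries, against 0.531, 0.577 and 0.442 in WT libraries, so that GCG exceeded INS in all 6 WT libraries. On both scales GCG fell more than INS in both experiments, by 3.11 more on the log2 scale of TPM with NKX2-2 KO and by 1.17 more with CLEC16A KO.

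GCG was 0.213, 0.346 and 0.344 times SST in NKX2-2 KO libraries, against 34.2, 31.4 and 26.2 times in WT libraries, a shift of -6.69 on the log2 scale. In CLEC16A KO libraries GCG was 2.67, 2.47 and 2.37 times SST, against 11.4, 9.96 and 11.8 times in WT libraries, a shift of -2.14. SST crossed GCG with NKX2-2 KO and came closer to it, without crossing, with CLEC16A KO. The ratio of INS to SST was 8.44, 9.48 and 12.1 in NKX2-2 KO libraries, against 120.3, 117 and 119 in WT libraries. It was 32.6, 33.9 and 25.2 in CLEC16A KO libraries, against 55.4, 63.2 and 59.9 in WT libraries.

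**Figure D3:**
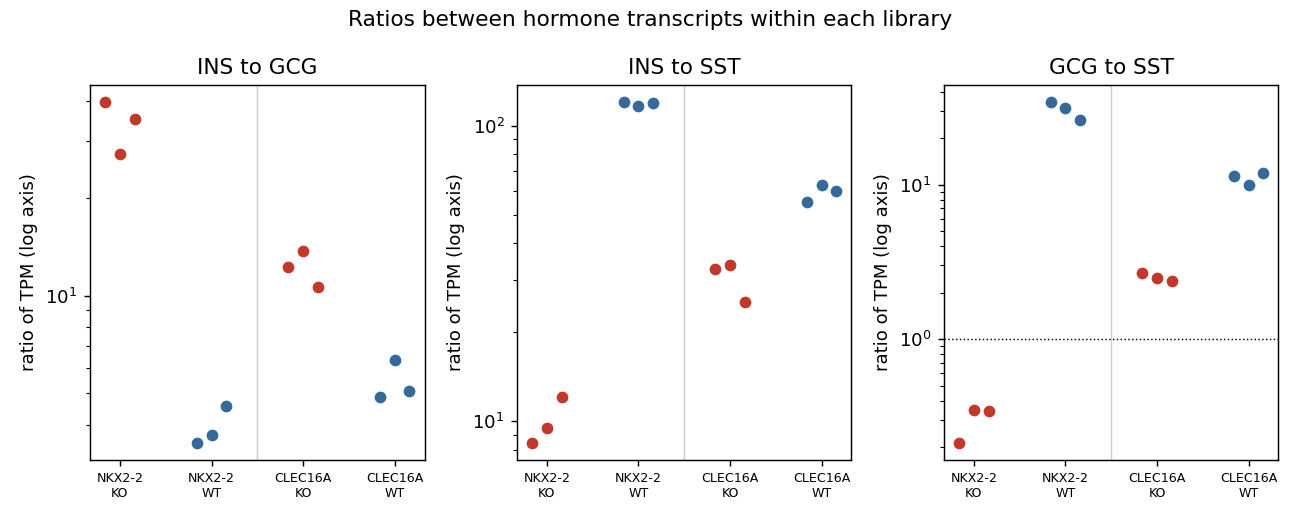
Ratio of the TPM of 2 hormones in the same library (y axis, log scale) by group (x axis), with 1 point per library and a dotted line at equal TPM in the right panel. GCG lies below SST only in the NKX2-2 KO libraries (ratio 0.213 to 0.346).

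Of 25 pairs of hormones with TPM above 0 in all libraries of an experiment (15 with NKX2-2 KO, 10 with CLEC16A KO), the ratios of KO and WT libraries did not overlap in 13 with NKX2-2 KO and in 9 with CLEC16A KO. Each of those had the smallest p that the two-sided exact permutation test allows with 3 against 3 (p = 0.1, Benjamini-Hochberg adjusted 0.1136), so no ratio could pass 0.05. The pairs share the same hormone genes and are not separate results. Among single genes, 45.5% with NKX2-2 KO and 53.8% with CLEC16A KO had groups that do not overlap in CPM. The ratios that overlapped were INS to IAPP and GHRL to IAPP with NKX2-2 KO and SST to GHRL with CLEC16A KO. SST to GHRL was 10.3, 10.5 and 8.83 in NKX2-2 KO libraries, against 1.72, 1.65 and 2.05 in WT libraries. PPY to GHRL was 0.0253, 0.105 and 0.0846 in NKX2-2 KO libraries, against 0.382, 0.370 and 0.490 in WT libraries, and 0.365, 0.464 and 0.471 in CLEC16A KO libraries, against 0.872, 1.32 and 0.884 in WT libraries.

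The TPM summed over the 6 hormones was 1467, 1429.7 and 1781 in NKX2-2 KO libraries, against 3889, 3938 and 5476 in WT libraries, and 5989, 6529 and 5267 in CLEC16A KO libraries, against 20863, 25476 and 21954 in WT libraries (exact permutation p = 0.1 in each, the smallest possible). Of this sum INS took 87.5% ± 1.48 in NKX2-2 KO and 78.6% ± 2.14 in WT libraries, and 89.2% ± 1.26 in CLEC16A KO and 82.7% ± 1.91 in WT libraries (SD, n = 3 each). On counts per kilobase INS took much less, 63.6% ± 1.62 in NKX2-2 KO and 42.5% ± 3.06 in WT libraries, and 45.2% ± 1.72 in CLEC16A KO and 32.2% ± 2.83 in WT libraries. Shares of TPM follow for the other hormones. GCG took 2.63% ± 0.498 in NKX2-2 KO and 20.2% ± 2.14 in WT libraries, and 7.38% ± 0.841 in CLEC16A KO and 15.4% ± 1.79 in WT libraries. SST took 8.92% ± 1.45 in NKX2-2 KO and 0.662% ± 0.0203 in WT libraries, and 2.96% ± 0.451 in CLEC16A KO and 1.39% ± 0.0663 in WT libraries. The share of SST in the hormone TPM was thus higher in KO libraries of both experiments, although its level fell with CLEC16A KO.

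The replicates of a group varied together in part. NKX2-2 WT library 3 had the highest TPM of its group for 6 of the 6 hormones, and the highest CPM for 5. In the other groups no library was highest for more than 4 of them in TPM.

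Counts and TPM do not measure INS alike, nor some marker genes used below. In NKX2-2 WT libraries CHGA held 28010 counts at a mean of 4215 TPM, and INS 37251 counts at a mean of 3498 TPM. The acinar marker PRSS1 held 7 counts in NKX2-2 KO and 77 in WT libraries, but a mean of 7.04 and 3.17 TPM. INS had 3.55 counts per TPM in NKX2-2 WT libraries and 1.11 in CLEC16A WT libraries. Per kilobase of median transcript length (GENCODE 29) this was 6.88-fold and 12.7-fold below the median of all compared genes, while GCG was 1.35-fold and 1.21-fold below it. The read-through gene INS-IGF2 lies on the same strand and shares 246 of the 776 exonic bases of INS, and it held 0 or 1 counts per library. The part of this overlap in the low counts of INS was not tested. Counts per TPM of INS were 3.25 in NKX2-2 KO and 3.55 in WT libraries, and 1.09 in CLEC16A KO and 1.11 in WT libraries, so KO and WT libraries of an experiment differed little in this. The antisense gene GHRLOS shares 288 of the 2064 exonic bases of GHRL, with 1 to 22 counts per library, and LINC00852 and AC022384.1 share 72 and 49. IAPP lies inside SLCO1A2 on the opposite strand without shared exonic bases, and SLCO1A2 held 107 to 331 counts per library. Since the use of strand is not given, reads of these partners cannot be told apart from those of GHRL and IAPP.

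Many marker genes of endocrine and other cell types also differed between KO and WT libraries, and not all in the direction of the hormones. The counts of called markers here and in the next paragraph stand beside 33.4% of all genes called with NKX2-2 KO and 45.0% with CLEC16A KO. The pan-endocrine genes CHGA, CHGB, SCG2, SCG3, SYP, INSM1 and NEUROD1, which mark hormone-secreting cells of any type, were all detected, and sums of markers were compared only within an experiment. Their summed level lay at 1456 to 1607 CPM in NKX2-2 KO and 3295 to 3367 CPM in WT libraries (6 of 7 genes lower, 1 not called), and at 15120.0 to 17332 CPM in CLEC16A KO and 26334 to 29245 CPM in WT libraries (6 lower, 1 higher). Their log2 fold changes ran from -1.88 to -0.10 with NKX2-2 KO (median -1.14) and from -0.91 to 0.30 with CLEC16A KO (median -0.73). GCG and PPY lay below both ranges. INS lay within the range with NKX2-2 KO and below it with CLEC16A KO, and so did GHRL. SST lay above the range with NKX2-2 KO and within it with CLEC16A KO.

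Mesenchyme markers summed to 4692 to 5210 CPM in NKX2-2 KO and 1730.1 to 1971 CPM in WT libraries (6 of 6 higher), but to 15.2 to 16.1 CPM in CLEC16A KO and 115 to 124 CPM in WT libraries (6 of 6 lower). Liver markers summed to 8818 to 11465 CPM in NKX2-2 KO and 8653 to 10275 CPM in WT libraries (2 of 5 higher, 1 lower), and to 11978 to 12953 CPM in CLEC16A KO and 4915 to 5155 CPM in WT libraries (3 of 5 higher). Intestine markers summed to 677 to 715 CPM in NKX2-2 KO and 1024 to 1129.9 CPM in WT libraries (4 of 5 lower), and to 1799 to 2019.6 CPM in CLEC16A KO and 673 to 689.7 CPM in WT libraries (5 of 5 higher). Duct markers summed to 669.8 to 732 CPM in NKX2-2 KO and 701 to 801 CPM in WT libraries (1 of 4 higher, 1 lower), and to 817 to 835 CPM in CLEC16A KO and 614 to 649 CPM in WT libraries (4 of 4 higher). Acinar markers summed to 32.6 to 40.0 CPM in NKX2-2 KO and 11.4 to 14.2 CPM in WT (2 of 4 higher, 2 not tested). In CLEC16A KO libraries they summed to 19.3 to 22.5 CPM, against 17.3 to 18.7 CPM in WT libraries. Of the 4 acinar markers, 1 was higher, 1 lower, 1 not called and 1 not tested with CLEC16A KO. No marker was at 0 counts in all libraries of an experiment. The part of these markers in the hormone results was not tested.

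Transcription factors that act on hormone genes were taken as a list of 25, of which 24 were tested in each experiment. With NKX2-2 KO 6 rose, 12 fell and 6 did not pass, beside 33.4% of all genes called, with a median log2 fold change of -0.48 beside 0.03 over all genes. The smallest p belonged to MNX1 (log2 fold change -2.49), a homeodomain factor of beta cells, IRX1 (-3.99) and IRX2 (-1.82), which mark alpha cells, and NKX6-1 (-1.89), a beta cell factor. With CLEC16A KO 2 rose, 21 fell and 1 did not pass, beside 45.0% of all genes called, with a median of -0.74 beside -0.01. Among those with the smallest p were PAX4 (-1.22), a factor of beta cell development, and MAFA (-3.17), an activator of the insulin gene in mature beta cells.

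MAFA went opposite ways in the experiments. It stood at 12.4, 12.9 and 12.9 CPM in NKX2-2 KO libraries, against 3.60, 4.20 and 4.46 CPM in WT libraries, and rose (log2 fold change 1.64, SE 0.15, adjusted p = 3.739e-06). In CLEC16A KO libraries MAFA stood at 0.970, 0.838 and 0.899 CPM, against 7.74, 8.36 and 8.29 CPM in WT libraries, and fell (adjusted p = 1.26e-11). The groups did not overlap in either experiment. HHEX, a delta cell factor, rose with NKX2-2 KO (0.87, SE 0.20, adjusted p = 0.004471) and fell with CLEC16A KO (-1.08, SE 0.17, adjusted p = 1.149e-05), the same directions as SST; it was chosen after its values were seen. NKX2-2 itself fell with CLEC16A KO, to 58.9 to 65.8 CPM in KO libraries, against 113 to 131 CPM in WT libraries (-0.93, adjusted p = 3.528e-10). POU3F4 was at 0 counts in all NKX2-2 libraries.

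Of 10 genes that process or degrade the hormones, 3 rose, 3 fell and 4 did not pass with NKX2-2 KO (33.4% of all genes were called), with a median log2 fold change of -0.07 beside 0.03 over all genes. PCSK1, a convertase of proinsulin, was at 27.1, 26.0 and 24.5 CPM in NKX2-2 KO libraries, against 455, 427 and 402 CPM in WT libraries (log2 fold change -4.05, SE 0.11, adjusted p = 3.009e-10). PCSK2, the convertase that makes glucagon from its precursor, fell less (-0.94), and PAM, which amidates peptides such as pancreatic polypeptide and amylin, and CPE, which trims basic residues after cleavage, rose (1.04 and 0.48). With CLEC16A KO 3 rose, 5 fell and 2 did not pass (45.0% of all genes were called), with a median of -0.25 beside -0.01. DPP4 and CPD, a peptidase that inactivates incretins and a carboxypeptidase, rose (1.64 and 0.74), and CPE and SCG5, the chaperone of PCSK2, fell (-0.51 and -0.94). In a fit of all 12 libraries together SCG5 did not pass (-0.93, adjusted p = 0.3519). In the NKX2-2 experiment SCG5 had 37 and 49 counts in WT libraries 1 and 2 and 540 in WT library 3. On counts its direction there depends on that library. In TPM SCG5 was higher in KO libraries (119, 96.0 and 103) than in WT libraries (66.5, 62.0 and 86.4), without overlap, so counts and TPM disagree for it.

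Of 15 receptor genes of these hormones, 11 were tested in each experiment. With NKX2-2 KO 1 rose, 7 fell and 3 did not pass, beside 33.4% of all genes called, and the median log2 fold change was -0.56 beside 0.03. With CLEC16A KO 1 rose, 7 fell and 3 did not pass, beside 45.0% of all genes called, and the median was -0.54 beside -0.01. Among the somatostatin receptors, SSTR1 was at 33.2, 29.6 and 26.3 CPM in NKX2-2 KO libraries, against 193, 186 and 173 CPM in WT libraries (log2 fold change -2.63, SE 0.12, adjusted p = 8.574e-09). SSTR2 fell with NKX2-2 KO (-0.996) and with CLEC16A KO (-1.20), and so did SSTR3 (-1.11 and -0.97). GLP1R, the receptor of the glucagon-like peptide that the precursor of glucagon also holds, fell in both (-2.12 and -0.99), and INSR, the insulin receptor, rose with CLEC16A KO (0.79, adjusted p = 9.805e-09). INSR fell with NKX2-2 KO (-0.56, adjusted p = 0.0291), with overlapping groups, and this call was lost in 7 of 17 alternatives (adjusted p up to 0.2449). Among these it was lost without any one of 4 libraries, with adjusted p from 0.07269 without KO replicate 3 to 0.1119 without KO replicate 2. SSTR4 was at 0 counts in all NKX2-2 libraries.

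Of 21 relatives of the hormone genes, 10 were tested with NKX2-2 KO, and 0 rose, 5 fell and 5 did not pass, beside 33.4% of all genes called. Their median log2 fold change was -1.37 beside 0.03 over all genes. PYY, which lies in the family of PPY, was at 3.85, 3.90 and 4.73 CPM in NKX2-2 KO libraries, against 67.0, 67.5 and 83.1 CPM in WT libraries (log2 fold change -4.12, SE 0.15, adjusted p = 2.251e-09). GIP, an incretin related to glucagon, had 1, 12 and 4 counts in NKX2-2 KO libraries, against 475, 464 and 514 counts in WT libraries (-6.29, SE 0.31), and the change was -7.35 on the log2 scale without KO replicate 2, the library with 12 counts. IGF2 (-1.66) and ADM2 (-1.13) fell too, but each lost its call in 1 of 17 alternatives. That was IGF2 with no filter in edgeR (-1.70, adjusted p = 0.09279) and ADM2 with limma on log2(TPM + 1) and no filter (-0.25, adjusted p = 0.1079). With CLEC16A KO 11 relatives were tested, 5 rose, 4 fell and 2 did not pass, beside 45.0% of all genes called, with a median of -0.09 beside -0.01. PYY (-1.42) and GIP (-1.97) fell, and SCT, the secretin gene (1.44), and ADM2, of the calcitonin family (1.32), rose. In a fit of all 12 libraries together SCT did not pass (1.45, adjusted p = 0.1241). VIP and RLN3 were at 0 counts in all 12 libraries, INSL6 and CALCB in all CLEC16A libraries.

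**Figure D4:**
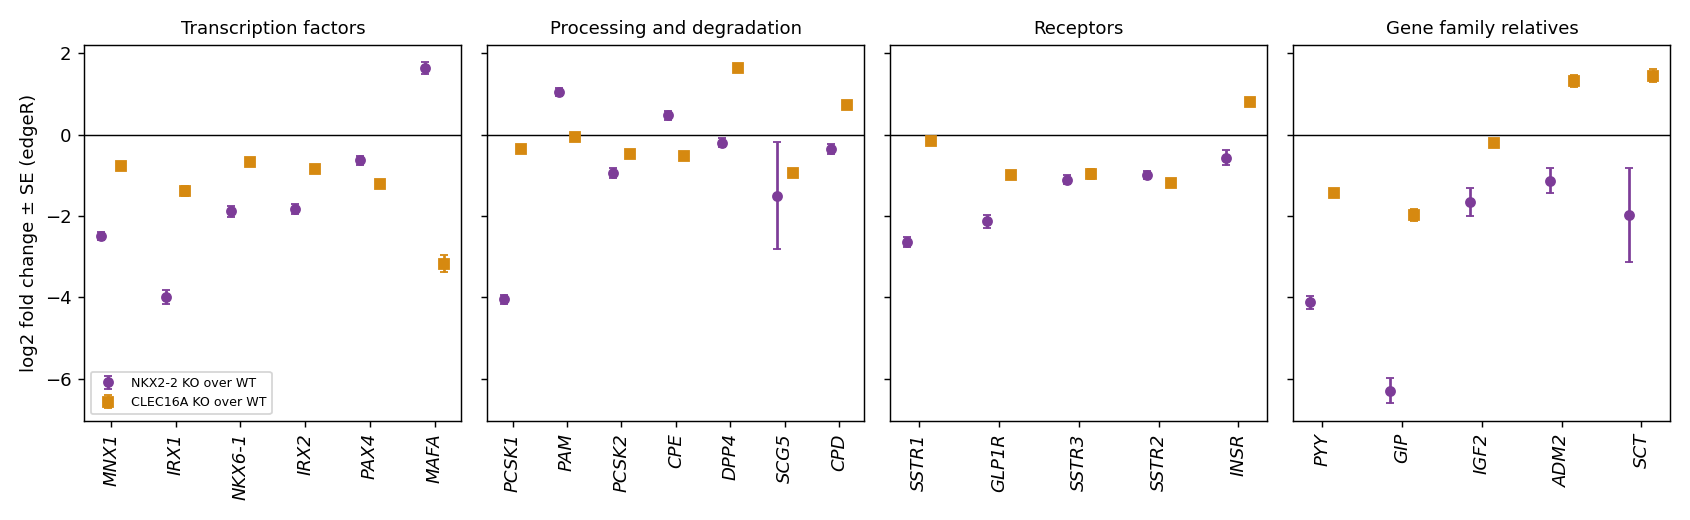
Log2 fold change of counts, KO over WT, with its SE (y axis) for the named transcription factors, processing genes, receptors and family relatives (x axis), NKX2-2 experiment as circles and CLEC16A experiment as squares. MAFA lies above 0 in the NKX2-2 and below 0 in the CLEC16A experiment, and PYY and GIP lie below 0 in both.

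The genes most like each hormone across the 12 libraries were sought among 11801 genes with at least 5 CPM in some group of each experiment, by the root mean square difference of log2 CPM, each centred on its own WT mean. The libraries share their group structure, so this likeness mostly restates similar group differences. Among the 3 genes closest to INS were CRYBA2 (0.25, Pearson's r 0.96) and TAFA5 (0.27). GCG was closest to NELL1 (0.35, r 0.99), NXPH4 (0.68) and PPP1R17 (0.73). SST was closest to GALNTL6 (0.22, r 0.99), CHODL (0.30) and FNDC5 (0.31), which like SST rose with NKX2-2 KO and fell with CLEC16A KO. GHRL was closest to GPBAR1 (0.15, r 0.98), a bile acid receptor gene, REEP2 (0.16) and SYT5 (0.16), a synaptotagmin. PPY was closest to LMO1 (0.58, r 0.93), CORO2B (0.58) and ARC (0.58).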

How the data were processed

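Per the labels, total RNA was sequenced from 12 libraries. The build hg38 and the tools HISAT2 2.2.1, StringTie 2.1.7 and fastp 0.22.0 are named, per the submitters' processing notes. Counting program, annotation release and strand setting: not given in the sources used here. The authors deposited raw counts and TPM per Ensembl gene, in separate tables for each experiment. Columns were assigned by their names, with 0 left unassigned, and 45 duplicate pseudoautosomal rows were dropped. The 37 genes of mitochondrial DNA hold 0 counts in CLEC16A libraries and 7.05% to 10.2% of the counts in NKX2-2 libraries.

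Counts of all genes were tested within each experiment with edgeR 4.0.16 in R 4.3.3 (filterByExpr, TMM scaling, robust quasi-likelihood F test, Benjamini-Hochberg adjustment, threshold 0.05), after a check on simulated data. The standard error (SE) is the size of the log2 change divided by the root of the F value. The interaction used a single fit of all 12 libraries. Hormone ratios used TPM and two-sided exact permutation tests. Alternatives used DESeq2 1.42.0, limma 3.58.1 on log2(TPM + 1) and log2(TPM + 0.1), other scalings and filters, a replicate block and left-out libraries. No pairing of replicates was assumed.

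The members, gene lists and motifs were chosen with earlier results of these data known. Named from each list are the 4 genes with the smallest p per experiment, some of which are not reported here; likeness used log2 of CPM plus 0.1, and gene positions are from GENCODE 29 (GRCh38). Every replicate pair differed by more than sampling noise.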

Additional observations from a re-analysis of the deposited data

Results flagged for a closer look

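For 23 of the 29 genes named here by the rule, 3 of the 6 hormone genes among them, the effect in the NKX2-2 experiment differed from that in the CLEC16A experiment in the interaction test (edgeR, adjusted p under 0.05). The genes other than hormones were chosen for small p in these same libraries, so their number is a description and is not set against the share over all genes. The values below are log2 differences, the effect of NKX2-2 KO minus that of CLEC16A KO. For the hormones they were 2.95 for SST, 1.03 for GHRL and -1.56 for GCG.

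Among the transcription factors the difference was 4.81 for MAFA, 0.61 for PAX4, -0.97 for IRX2, -1.21 for NKX6-1, -1.72 for MNX1 and -2.59 for IRX1. Among processing genes it was 1.11 for PAM, 1.00 for CPE, -0.44 for PCSK2, -1.08 for CPD, -1.83 for DPP4 and -3.70 for PCSK1. Among receptors it was -1.12 for GLP1R, -1.34 for INSR and -2.48 for SSTR1. Among relatives it was -1.45 for IGF2, -2.45 for ADM2, -2.69 for PYY, -3.39 for SCT and -4.32 for GIP. The counts of SCT are uneven within the NKX2-2 experiment, with 6, 57 and 5 in KO libraries and 110, 16 and 149 in WT libraries. In TPM SCT was more even, at 5.08, 6.19 and 5.44 in KO libraries, against 12.3, 9.10 and 16.2 in WT libraries, without overlap. Its difference lost the call in 13 of 19 alternatives (adjusted p up to 0.1813). It was -5.30 without NKX2-2 KO replicate 2 and -2.75 without NKX2-2 WT replicate 3 (adjusted p = 0.1045). The PCSK2 difference lost its call in 6 of 19 (adjusted p up to 0.07598, with upper-quartile scaling) and that of IGF2 in 5 of 19 (up to 0.0706, without NKX2-2 WT replicate 2). Groups of 3 libraries are too small to be tested for a library far from the others.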

How the results depend on the processing

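The number of hormone genes called stayed at 4 (1 higher, 3 lower) in all 17 alternatives of the NKX2-2 comparison and at 5 (all lower) in all 16 of the CLEC16A comparison, the replicate block included, and each hormone called kept its direction and call in them. The difference of effects was called for 3 hormone genes, and for 5 with the replicate block, INS and IAPP being added; for 3 to 4 with single libraries left out. The PPY difference ran from -0.57 to 0.081 with single libraries left out, positive without NKX2-2 KO replicate 1, and IAPP in the CLEC16A experiment turned to -0.15 with limma on log2(TPM + 1), with or without the filter, and to -0.75 on log2(TPM + 0.1). SCG5 with NKX2-2 KO turned to 0.57 on both TPM scales and 0.94 without both libraries numbered 3, and ran from -2.04 to 0.93 (without WT replicate 3) with single libraries left out; its difference of effects was 1.91 without both libraries numbered 3 and ran from -1.07 to 1.89 (without NKX2-2 WT replicate 3). PAM with CLEC16A KO, not called with all libraries, ran with single libraries left out from -0.18 (without KO replicate 3, called there with adjusted p = 0.04217) to 0.018, positive without KO replicate 2 and without WT replicate 2 (0.004597). On counts in place of TPM the INS share rose by 24.96 percentage points with NKX2-2 KO (8.87 on TPM) and by 12.3 with CLEC16A KO (6.45 on TPM), and the summed level changed by -2.21 (-1.50 on TPM) and -2.53 (-1.94 on TPM) on the log2 scale; INS has few counts per TPM in both experiments. The changes in the ratios of INS to GCG, INS to SST and GCG to SST moved by less than 1 SD in all their alternatives. Over all genes, limma with no filter called 3247 in the NKX2-2 comparison and the replicate block 8037, against 5824 with edgeR. Same-numbered KO and WT libraries did not all deviate together (correlations 0.11, 0.03 and 0.32 in NKX2-2 and 0.01, 0.01 and -0.03 in CLEC16A libraries), so the numbers were not taken as pairs. The NKX2-2 libraries numbered 3 had the highest value of that experiment (0.32), and each with libraries of other numbers ran from -0.24 to -0.11. What the libraries numbered 3 share was not tested. Of 1194 alternatives of the other named genes, 1131 kept direction and call. The cause of the turns of sign was not tested, and leaving out both libraries numbered 3 was chosen after seeing the data. PPY in NKX2-2 KO libraries and IAPP throughout are limited by depth.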
